A study of Mus musculus with 19 samples.

Results

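Renal grafts of induced epithelial cells that carried introduced prostate regulators (iEpt+NAF, 5 grafts) were set against grafts of the same kind of cells without them (iEpt only, 2 grafts), 7 of the 19 RNA-seq samples of the series. Mouse embryonic fibroblasts (MEFs) of strain C57BL/6, taken at E13.5, had received retroviruses for 4 human reprogramming factors (OSKM, which stands for OCT4, SOX2, KLF4 and MYC) in a basal epithelial medium, which gave iEpt cells. Lentiviruses then added 3 prostate regulators, Foxa1 among them, to make iEpt+NAF cells. Both kinds of cell were mixed with rat urogenital mesenchyme, the inductive stroma of the prostate, and grown for 6 weeks under the kidney capsule of male nude mice. The epithelial medium held dexamethasone, the mixtures were cultured overnight with dihydrotestosterone, and the hosts carried testosterone pellets. Cells that received the lentiviruses were sorted for a fluorescent marker and selected with puromycin and blasticidin before grafting. The study reports that prostate content of the sequenced iEpt+NAF grafts was checked by histology and immunostaining. It describes the iEpt grafts it compared them with as lacking prostate tissue. The labels describe all 7 grafts in the same words. The iEpt+NAF grafts FS002, FS003, FS005, FS007 and FS008 are those that the study's supplement names, and FS022 and FS023 are the other graft samples, in a table of their own. Prostates of C57BL/6 mice at 6 weeks of age (n = 6) and MEFs that carried a lacZ allele (n = 6) served as reference levels.

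The adult prostate is a ductal epithelium of secretory luminal cells and supporting basal cells, in a smooth muscle stroma. Foxa1 is a pioneer factor that opens chromatin for steroid receptors in this tissue, and prostate luminal cells export large amounts of androgen-dependent proteins such as probasin. A graft holds the donor cells and their progeny, rat stroma, and vessels and kidney tissue of the host, so fewer cells of a type and less RNA per cell cannot be told apart. Rat reads that matched mouse genes and reads from the viral inserts were not separated from those of the mouse genes here.

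The values are normalized counts on a log2 scale, and a difference of 1 is a doubling except at low values, where the authors' variance stabilization compresses it. The reads on genes, estimated from the spacing of the values, were 17400000 to 23400000 in iEpt+NAF grafts, 6600000 in FS022 and 9700000 in FS023 (rounded). The 2 tables were normalized separately, and the 2 kinds of graft lie in different tables. Table, depth, cell selection, prostate content of the chosen grafts and condition therefore cannot be told apart. For that reason no test was made, and the description rests on genes in which all 5 iEpt+NAF grafts lay beyond both iEpt only grafts. The gap is the distance between the nearest grafts of the 2 groups, taken after values below that of 3 reads were raised to it.

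Of 16886 genes compared, 1671 had all 5 iEpt+NAF grafts above both iEpt only grafts (9.90%), 1952 had all 5 below (11.6%), and 13263 overlapped. Most gaps were small, with medians of 0.24 above and 0.30 below. Of the genes below, 95 had an iEpt only graft under the value of 3 reads, which is higher in those shallower grafts, and their measured values can overlap. A gap of at least 1 remained for 78 genes above (0.462%) and 194 below (1.15%). Of the genes outside the overlap, 46.1% were above, a share that moved to 63.4% when samples were aligned on the 75th percentile (2346 above, 1352 below) and to 56.3% with quantile normalization (2048 above, 1590 below). Leaving out FS022 raised the counts to 4028 above and 5978 below, and leaving out FS023 raised them to 3950 and 4203.

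Transcript length and base composition moved with these calls. The longest coding transcript had a median of 2367 bases for genes above and 3716 bases for genes below, against 2931 bases over all genes compared. From the shortest to the longest quartile, the share above went from 14.2% to 5.38% and the share below from 6.82% to 17.6%. Likewise, from the lowest to the highest quartile of GC content, the share below went from 17.8% to 8.0%. After both trends were taken off in each graft, 1469 genes were above and 2019 below, of which 1218 and 1576 had the same call before. The part of length and GC content in single genes was not tested beyond this. Among the list members described below, 12 lost their call with this step and 4 overlapping genes, Esam, Robo4, Actb and Pgk1, became below.

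**Figure D1:**
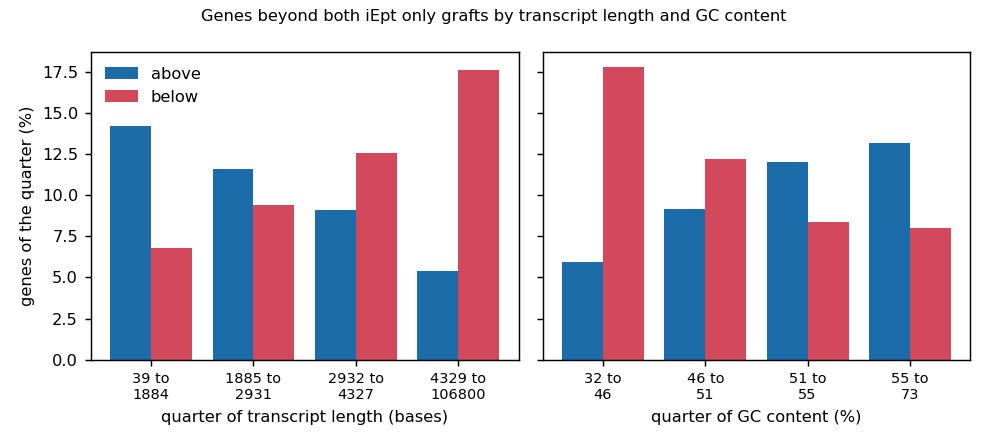
Bars give the percentage of genes with all 5 iEpt+NAF grafts above (blue) or below (red) both iEpt only grafts, in quartiles of transcript length in bases (left) and of GC content in percent (right). The share above falls from 14.2% to 5.38% with length, while the share below rises from 6.82% to 17.6%.

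The largest gap above was that of Sbp, a spermine-binding protein of the prostate, with values of 8.90, 11.22, 7.38, 8.31 and 7.99 in the iEpt+NAF grafts FS002, FS003, FS005, FS007 and FS008. Both iEpt only grafts, at -0.18 and -0.70, were below the value of 3 reads, and the gap was 4.16. The prostate median of Sbp was 20.40. MEFs had a median of 9.46 and a maximum of 11.24, so no iEpt+NAF graft exceeded the MEF range. Scgb1a1, the club cell secretoglobin of airways, had 11.53, 12.87, 11.38, 8.98 and 8.33 against 2.75 in FS022 and 5.86 in FS023. The serine protease Prss32 had 9.96, 10.81, 11.41, 11.31 and 11.11 against 4.47 and 7.62, a narrow spread (SD 0.58, n = 5) beside a mean difference of 4.88. The peptide Edn2, an endothelin, had 7.58, 6.34, 6.54, 7.72 and 8.01 against 3.96 and 2.10. Scgb1a1 in FS022 and Edn2 in FS023 were below the value of 3 reads. Prostate reference medians for Scgb1a1, Prss32 and Edn2 were low, at 1.56, 3.48 and 3.60, so that these 3 genes were higher in every iEpt+NAF graft than at the middle of the prostate samples.

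The other genes among the 12 largest gaps above were Prol1, Serpina1e, Pbsn, Saa1, Myoz2, Pirt, Baiap2l2 and Ly6g6c, with gaps from 1.70 to 2.46. Prol1 varied most among them, from 5.67 in FS008 to 14.76 in FS002. Saa1, an acute phase protein, ran from 5.08 in FS002 to 11.76 in FS007, with -2.36 and 2.68 in the iEpt only grafts. Pirt was the one of these with a prostate median, 8.41, inside the range of the iEpt+NAF grafts, which was 6.29 to 8.87. Both iEpt only grafts were below the value of 3 reads for Prol1, Pbsn and Saa1, and 1 of them was for Serpina1e and Pirt.

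**Figure D2:**
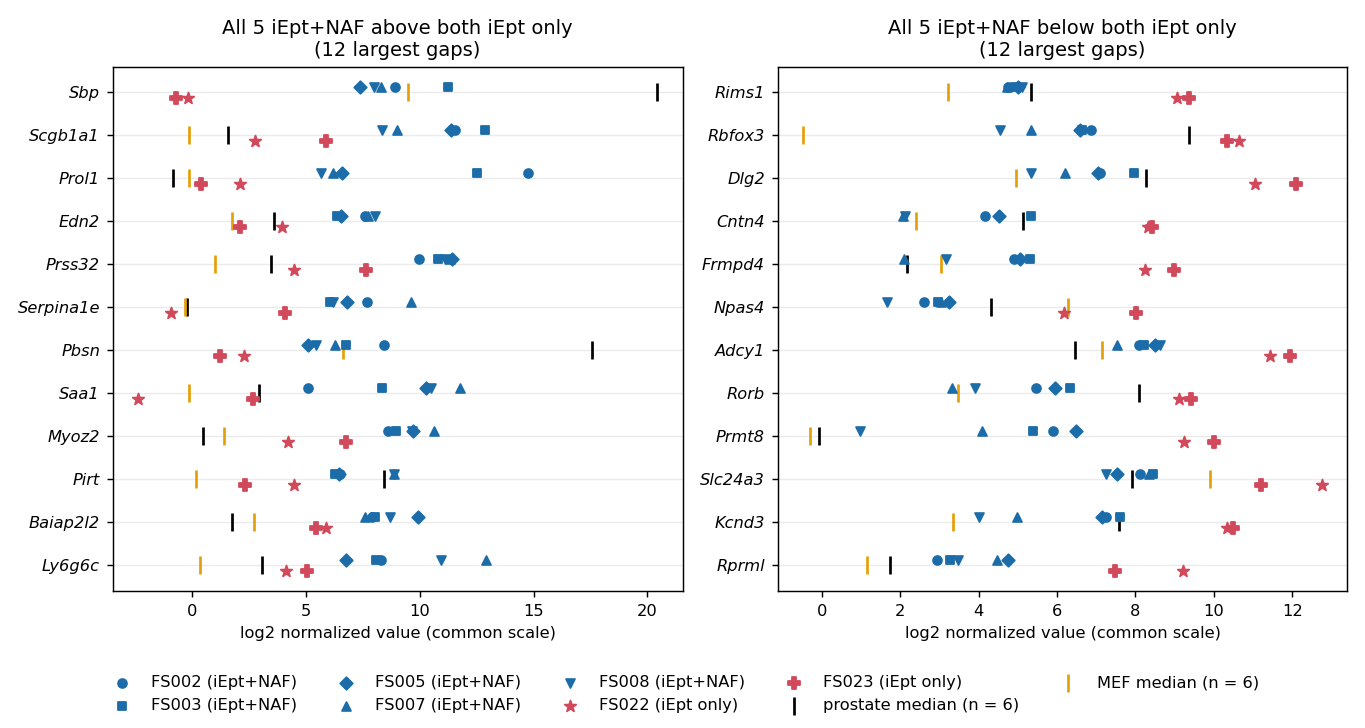
Log2 normalized values (horizontal axes) of the 12 genes with the largest gap above (left) and below (right), with 1 point per graft (blue, 5 iEpt+NAF; red, 2 iEpt only) and the medians of 6 prostates (black) and 6 MEF samples (orange). In the left panel Sbp shows the widest gap, 4.16, and in the right panel Rims1 does, 3.96.

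Of 18 genes compared in the prostate secretory list, 6 were above (33.3%, against 9.90% of all genes compared), none was below, and 12 overlapped. The list also held seminal vesicle products and other genes that were low in prostate, so these shares describe a mixed list. Prostate medians were 2.44 for Svs2, 2.83 for Svs4, 3.47 for Pate4 and 2.05 for Wfdc15b. Ceacam10, which was above, had a prostate median of 4.74. The 6 were Sbp, Pbsn, 9530002B09Rik, Azgp1, Ceacam10 and Sbpl, and the list had a median difference of 1.28, against -0.09 over all genes. The count was 6 under every scaling tried, and the same 6 were above after the length and GC trends were taken off. These steps do not address the MEF level, and the iEpt+NAF values of Sbp, Pbsn and 9530002B09Rik lay inside the MEF range.

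Pbsn encodes probasin, the androgen-dependent protein whose promoter is used to drive transgenes in prostate epithelium. It lies on the X chromosome of mm9 from 75083240 to 75098962. The 250 bases before its RefSeq start, at chrX:77853501-77853750 of GRCm38.p6 on the minus strand, are shown because they hold 1 copy of AGAACA, in capitals, the reverse strand form of TGTTCT, a core known from steroid response elements.
Pbsn: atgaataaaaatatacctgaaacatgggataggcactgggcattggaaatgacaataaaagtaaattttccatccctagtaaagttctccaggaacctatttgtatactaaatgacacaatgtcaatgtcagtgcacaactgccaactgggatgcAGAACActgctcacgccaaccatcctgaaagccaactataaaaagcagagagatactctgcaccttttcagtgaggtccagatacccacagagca
On either strand, TGTTCT occurred in 10 of 17 such promoters of the mixed prostate secretory list and in 16.1% of all 32851 promoters in the table. This describes letters and not binding.

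Pbsn had values of 8.41, 6.76, 5.08, 6.28 and 5.43 in the iEpt+NAF grafts. Both iEpt only grafts were below the value of 3 reads, at 2.27 and 1.23, so the groups were apart by 1.87. In normal prostate the median was 17.58, and the iEpt+NAF grafts reached from 0.0163% to 0.171% of that level. MEFs, which do not make probasin, read between 2.16e-05% and 0.190% of it with a median of 0.0498%, in the same table and the same range as the grafts. Sbp showed the same pattern, with 0.0119% to 0.172% of the prostate median in iEpt+NAF grafts and 0% to 0.174% in MEFs. The gene 9530002B09Rik had 0.0112% to 0.111% in iEpt+NAF grafts and 0% to 0.183% in MEFs. The prostate, MEF and iEpt+NAF samples share 1 table, whereas the iEpt only grafts lie in the other, and the part of reads carried over between samples in Sbp, Pbsn and 9530002B09Rik was not tested.

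Azgp1, Ceacam10 and Sbpl did not share the MEF background. Azgp1, a secreted zinc-binding glycoprotein, had 8.83, 7.17, 9.45, 5.6 and 8.35 against 4.48 and 3.09, or 0.444% to 6.61% of the prostate median where MEFs reached at most 0.213%. Ceacam10, a secreted member of the carcinoembryonic antigen family, had 6.19, 7.36, 7.27, 8.72 and 8.50 against 3.93 and 5.82, and all 5 grafts exceeded the prostate median of 4.74. Sbpl, a gene related to Sbp by name whose reads could be shared with it, had 9.52, 9.20, 9.65, 5.39 and 4.87, with both iEpt only grafts below the value of 3 reads. FS007 and FS008 were the lowest for Sbpl, while for Ceacam10 they were the highest.

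Not every secretory product was higher with the regulators. Tgm4, the prostate transglutaminase, whose MEF median was 8.59, had 10.00, 9.64, 7.78, 8.44 and 8.19 in iEpt+NAF grafts, and FS022 exceeded all of them at 12.80 while FS023 had 6.86. Spink3, a secreted protease inhibitor, had 10.67, 11.01, 11.42, 7.44 and 10.78 against 9.04 and 6.25, so that FS007 alone lay inside the range of the iEpt only grafts. Msmb, another abundant secreted protein, ran from 0.87 to 7.16 against 3.22 and -0.29. MEFs ran from 1.13 to 5.98 for Msmb, which only FS002 exceeded, and reached 8.29 for Spink3, above FS007. For Tgm4, MEFs had 0.039% to 0.231% of the prostate median. Only FS002 and FS022 exceeded that range, at 0.262% and 1.82%. In every graft these 3 genes were far below their prostate medians of 18.57, 17.46 and 14.97.

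Foxa1, the introduced regulator described here, did not separate the groups. It had 10.85, 11.48, 10.84, 9.37 and 8.97 in iEpt+NAF grafts against 10.81 and 9.77 in iEpt only grafts, with a mean difference of 0.01. The prostate median was 12.74 and the MEF median 4.08, which places all 7 grafts between them. These values do not separate viral from endogenous Foxa1. Viral copies lack the untranslated end of the transcript. The study's supplement reports reads there in FS002, FS003 and FS005 but not in FS007 and FS008. All 4 OSKM genes overlapped as well. Sox2 was within 10.01 to 10.83 in iEpt+NAF grafts against 10.08 and 11.13, Klf4 within 9.52 to 11.04 against 10.84 and 9.13, and Myc within 6.69 to 9.75 against 9.0 and 8.42. Pou5f1, which encodes OCT4, was at 9.87, 4.60 and 9.05 in FS002, FS003 and FS005 but at 1.54 and 0.82 in FS007 and FS008, with 0.12 and 2.99 in the iEpt only grafts. Viral and mouse OSKM reads are not separated here either. The study's supplement reports human SOX2 reads in every iEpt+NAF graft, most in FS007 and FS008, and human OCT4 reads in all of them but FS008.

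Among 15 other regulators of prostate and urogenital sinus, 3 were below (20%, against 11.6% of all genes compared), none was above and 12 overlapped. The widest gap was that of Pgr, the progesterone receptor, with 6.01, 5.91, 4.32, 3.30 and 2.88 against 8.79 and 8.33. Esr2, the second oestrogen receptor, had 2.87, 3.24, 1.39, -1.41 and 0.31 against 4.05 and 4.41, of which 3 iEpt+NAF values were under that of 3 reads. Sox9, which marks budding prostate epithelium, had 10.69, 10.77, 10.01, 8.80 and 8.07 against 11.29 and 10.90, and overlapped after the length and GC trends were taken off. Esr1 and the luminal factor Spdef overlapped, with 6.51 to 7.24 against 9.12 and 5.92, and 7.53 to 9.70 against 7.79 and 8.28.

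Of 18 androgen-responsive genes, 1 was above (5.56%, against 9.90% of all genes compared) and 3 were below (16.7%, against 11.6%). Fkbp5, a chaperone of steroid receptors that androgens and glucocorticoids induce, had 11.35, 11.19, 11.58, 14.55 and 14.12 against 10.18 and 9.58, a gap of 1.01. FS007 and FS008 stood above the highest prostate value, 12.97, and the other 3 iEpt+NAF grafts stood below the prostate median of 12.34. The 3 below were Herc3, Steap4 and Camkk2, with gaps of 0.03, 0.15 and 0.03, and Herc3 overlapped after the length and GC trends were taken off. Tmprss2 overlapped, with 10.01 to 12.03 against 11.98 and 9.86, and so did Zbtb16, with 7.74 to 10.11 against 7.98 and 7.68.

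Of 22 epithelial junction and regulator genes, 7 were above (31.8%, against 9.90%) and none below, with a median difference of 1.23. Spint2, an inhibitor of membrane serine proteases, had the widest gap, with 13.15, 13.51, 12.98, 13.24 and 12.82 against 12.11 and 11.43. Cdh1, which encodes E-cadherin, had 13.15, 13.66, 12.94, 13.91 and 13.03 against 12.69 and 11.19. The others were Cldn3, Cldn7, Elf3, Rab25 and Spint1, with gaps of 0.03 to 0.28, and these 5 overlapped once the length and GC trends were taken off, which left 2. Without FS022 all 22 were above, and without FS023 the count was 7. The keratin Krt8 ran from 12.51 to 13.83 against 12.86 and 11.01, and no gene of the luminal list (10 genes) or the basal list (14 genes) was outside the overlap. Of 7 urothelial genes, 2 were above (28.6%, against 9.90%), Psca with 12.07, 12.37, 11.05, 14.52 and 14.51 against 6.96 and 10.24, and the superficial cell keratin Krt20 with 8.68 to 11.34 against 3.73 and 7.83. Neither Upk1b, with 7.36 to 11.33 against 9.14 and 9.26, nor the other uroplakins were outside the overlap.

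Of 20 genes of replication and mitosis, 15 were above (75%, against 9.90% of all genes compared), none was below, and the median difference was 1.28. Mcm5, a subunit of the replicative helicase, had 10.31, 9.90, 10.34, 9.46 and 9.54 against 8.49 and 8.47, the widest gap of the list at 0.97. Birc5, which encodes the chromosomal passenger protein survivin, had 8.81, 8.80, 9.34, 8.87 and 8.08 against 6.79 and 7.29. The proliferation marker Mki67 had 10.80, 10.77, 11.32, 10.77 and 10.27 against 9.73 and 9.89, a mean difference of 0.97. The mitotic kinase Plk1 had 9.18, 9.36, 9.72, 9.25 and 8.23 against 6.88 and 7.96. For Mki67 and Plk1 the grafts lay between prostate, with medians of 9.36 and 5.92, and dividing MEFs, with medians of 12.73 and 10.24.

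All 5 other genes of the list, Top2a, Cdk1, Ccnb1, Pcna and Aurkb, missed separation by 0.06 to 0.26, and in each the lowest iEpt+NAF value was that of FS008 and the higher iEpt only value that of FS023. The count above was 14 after the length and GC trends were taken off, when Ccnb2 overlapped, and 15 to 19 under the other scalings. It was 15 without any one of the other iEpt+NAF grafts or without FS022, and 20 without FS008 or without FS023. Cell cycle transcripts had a median length of 2978 bases and a median GC content of 47.2%, against 2931 bases and 50.5% over all genes compared. The log2 of the summed normalized counts of the 20 cell cycle genes was 13.51 to 14.45 in iEpt+NAF grafts and 12.77 and 12.94 in iEpt only grafts. That of the immune cell list was 14.27 to 15.25 against 15.12 and 15.15.

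**Figure D3:**
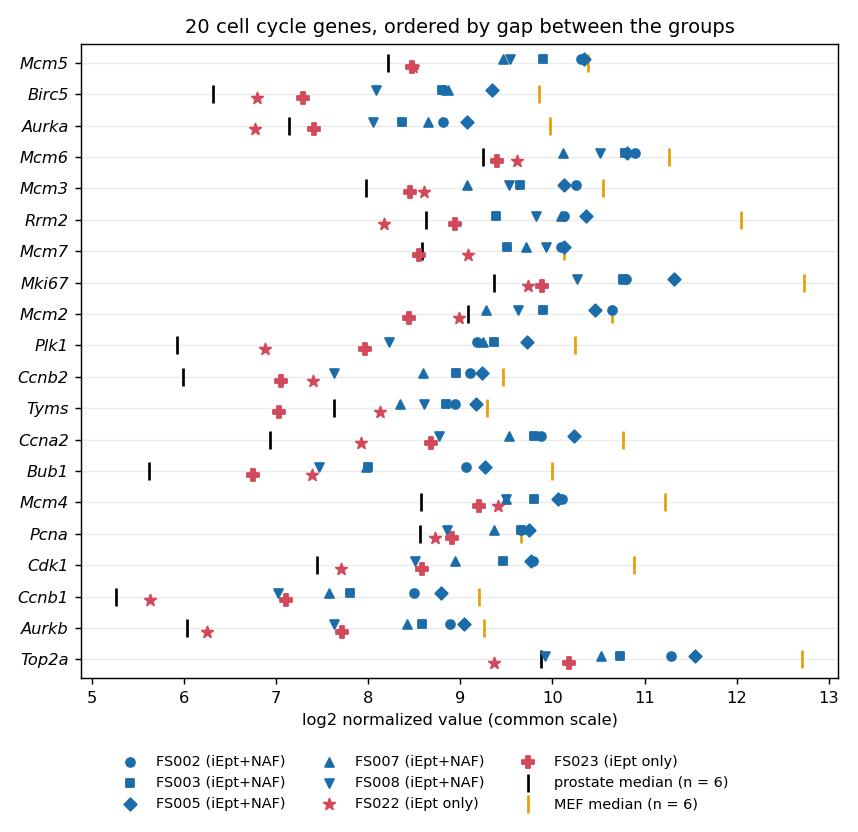
Log2 normalized values (horizontal axis) of 20 cell cycle genes ordered by the gap between the groups, with 1 point per graft (blue, 5 iEpt+NAF; red, 2 iEpt only) and the medians of 6 prostates (black) and 6 MEF samples (orange). For 15 genes all blue points lie to the right of both red points, by 0.08 to 0.97.

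Promoters are shown for the 2 cell cycle genes with the widest gaps because genes of this class often carry CCAAT boxes close to their start. The sequences are the 250 bases before the RefSeq start in GRCm38.p6, at chr8:75109259-75109508 for Mcm5 and chr11:117848987-117849236 for Birc5, both on the plus strand. Capitals mark CCAAT, of which Mcm5 has 2 copies. Neither CCAAT nor TTTGAA, a core of the cell cycle homology region, occurred in the Birc5 window on either strand.
Mcm5: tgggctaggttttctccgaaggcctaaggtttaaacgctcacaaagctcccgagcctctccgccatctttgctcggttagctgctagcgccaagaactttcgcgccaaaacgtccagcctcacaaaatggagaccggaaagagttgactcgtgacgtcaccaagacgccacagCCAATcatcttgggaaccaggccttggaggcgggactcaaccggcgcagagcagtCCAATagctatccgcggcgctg
Birc5: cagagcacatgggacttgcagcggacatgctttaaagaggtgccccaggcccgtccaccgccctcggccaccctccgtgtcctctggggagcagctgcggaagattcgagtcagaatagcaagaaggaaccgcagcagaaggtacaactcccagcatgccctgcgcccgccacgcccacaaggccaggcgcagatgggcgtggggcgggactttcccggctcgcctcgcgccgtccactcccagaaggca
CCAAT occurred on either strand in 16 of the 18 cell cycle promoters in the table and in 33.9% of all 32851 promoters. TTTGAA occurred in 5 of the 18 and in 16% of all promoters. CCAAT was found in 12 of the 14 promoters of cell cycle genes above.

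Genes of protein folding and export, which load and process secreted proteins in the endoplasmic reticulum (ER), included 5 above (27.8%, against 9.90% of all genes compared) and 1 below (5.56%, against 11.6%) of 18. Sdf2l1 had 9.31, 9.38, 9.28, 9.62 and 9.48 against 8.55 and 8.35, and Creld2 had 9.95, 9.79, 10.38, 10.26 and 10.08 against 8.66 and 9.11. The other 3 were Sec61b, Edem1 and Manf, with gaps of 0.14 to 0.47. Their prostate medians were higher than any graft, 12.29 for Sdf2l1 and 12.80 for Creld2. The count above stayed at 5 without the length and GC trends and rose to 12 with quantile normalization. Canx, the gene below, had a gap of 0.04 and overlapped under 4 of the 5 other scalings.

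The largest gap below was that of Rims1, a scaffold of the presynaptic active zone, which had 4.75, 4.92, 5.01, 4.73 and 5.11 in the iEpt+NAF grafts against 9.07 in FS022 and 9.36 in FS023, with an SD of 0.17 (n = 5) beside a mean difference of -4.31. Rbfox3, the neuronal splicing regulator NeuN, had 6.87, 6.63, 6.59, 5.34 and 4.54 against 10.64 and 10.35. Dlg2, a postsynaptic scaffold, had 7.09, 7.97, 7.05, 6.21 and 5.33 against 11.06 and 12.11. The adenylyl cyclase Adcy1 had 8.09, 8.22, 8.49, 7.54 and 8.62 against 11.43 and 11.95. In these 4 genes the 2 iEpt only grafts stood within 1.05 of each other.

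The other 8 of the 12 largest gaps below were the axonal adhesion protein Cntn4, the scaffold Frmpd4, the activity-induced factor Npas4, the nuclear receptor Rorb, the methyltransferase Prmt8, the exchanger Slc24a3, the potassium channel Kcnd3 and Rprml, with gaps of 2.71 to 2.98. Rbfox3 reached 9.38 and Rorb 8.09 at the prostate median, so a high level was not limited to the iEpt only grafts. Transcripts of Rims1, Dlg2 and Kcnd3 were long, at 6245, 5278 and 7169 bases, while that of Rprml was short, at 1072 bases. All 12 kept all 5 iEpt+NAF grafts below under each scaling tried and after the length and GC trends were taken off.

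Of 21 neural genes, 1 was below (4.76%, against 11.6% of all genes compared) and 20 overlapped, while the list had a median difference of -2.32 and 20 of its 21 differences were negative, the exception being Pax6. The gene below was the neurofilament gene Nefl, with 9.37, 8.67, 9.87, 9.07 and 6.19 against 11.44 and 12.19. Snap25, Nefm, Syt1, Sox10 and Gap43 overlapped by 0.13 to 0.44. Neuronal tubulin Tubb3 had 10.40, 9.55, 11.22, 6.05 and 5.25 against 8.10 in FS022 and 13.40 in FS023. The glial filament Gfap had 13.71, 14.42, 12.16, 5.22 and 4.60 against 12.97 and 16.21. Without FS022, 19 of the 21 neural genes were below, and without FS023, 1 was. The log2 of the summed normalized counts of the neural list was 12.08 to 15.43 in iEpt+NAF grafts, 14.13 in FS022 and 17.79 in FS023. The part of neural tissue in Rims1, Rbfox3 and the other leading genes was not tested.

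Of 24 fibroblast and mesenchymal genes, 6 were below (25%, against 11.6% of all genes compared) and none above, with a median difference of -0.45. The median transcript of this list had 4342 bases, inside the longest quartile, in which 17.6% of genes were below. Zeb2, a repressor of E-cadherin, had 9.80, 10.05, 9.96, 9.08 and 9.50 against 11.46 in FS022 and a mean of 11.48 over both iEpt only grafts. Its relative Zeb1 had 9.07, 9.19, 9.46, 7.47 and 7.93 against 11.09 and 10.85. Both had gaps near 1.4, namely 1.41 and 1.40. The intermediate filament Vim had 13.56, 13.65, 13.18, 12.15 and 11.56 against 13.89 and 14.24. The receptor Pdgfra, the factor Prrx1 and the cadherin Cdh11 were also below, with gaps of 0.05, 0.06 and 0.35, of which Pdgfra and Prrx1 overlapped after the length and GC trends were taken off. Other regulators of the list overlapped, with mean differences of 0.68 for Snai1, 0.63 for Twist2, -0.49 for Snai2 and -0.67 for Twist1. Col1a1 and Dcn, which encode matrix proteins, overlapped too, Col1a1 with 11.78 to 14.14 against 13.94 and 11.63, and Dcn with 9.92 to 12.83 against 12.65 and 10.73.

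Across 294 genes of the transcription factor families considered, 10 were above (3.4%, against 9.90% of all genes compared) and 25 below (8.50%, against 11.6%). Trp53 had the widest gap above, 0.76, with 10.64, 10.17, 10.43, 10.45 and 10.05 against 9.22 and 9.29. Tbx1 followed with 7.78, 8.37, 7.90, 9.99 and 9.43 against 6.79 and 7.31. Klf2, Tcf3, Foxk1, Foxm1, Hes6 and the epithelial factor Elf3 had gaps of 0.03 to 0.21, and Hes6 and Elf3 overlapped after the length and GC trends were taken off. Foxm1, which drives mitotic genes, had 8.98, 8.79, 9.58, 8.45 and 8.18 against 7.46 and 8.12. On the side below, Zeb2 and Zeb1 were followed by Pbx3, Esr2, Satb1, Nr2c2, Meis2 and Nr2f1, with gaps of 0.46 to 0.90. Satb1, a chromatin organizer, had 8.86, 8.56, 9.33, 6.74 and 7.30 against 10.49 and 9.92.

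**Figure D4:**
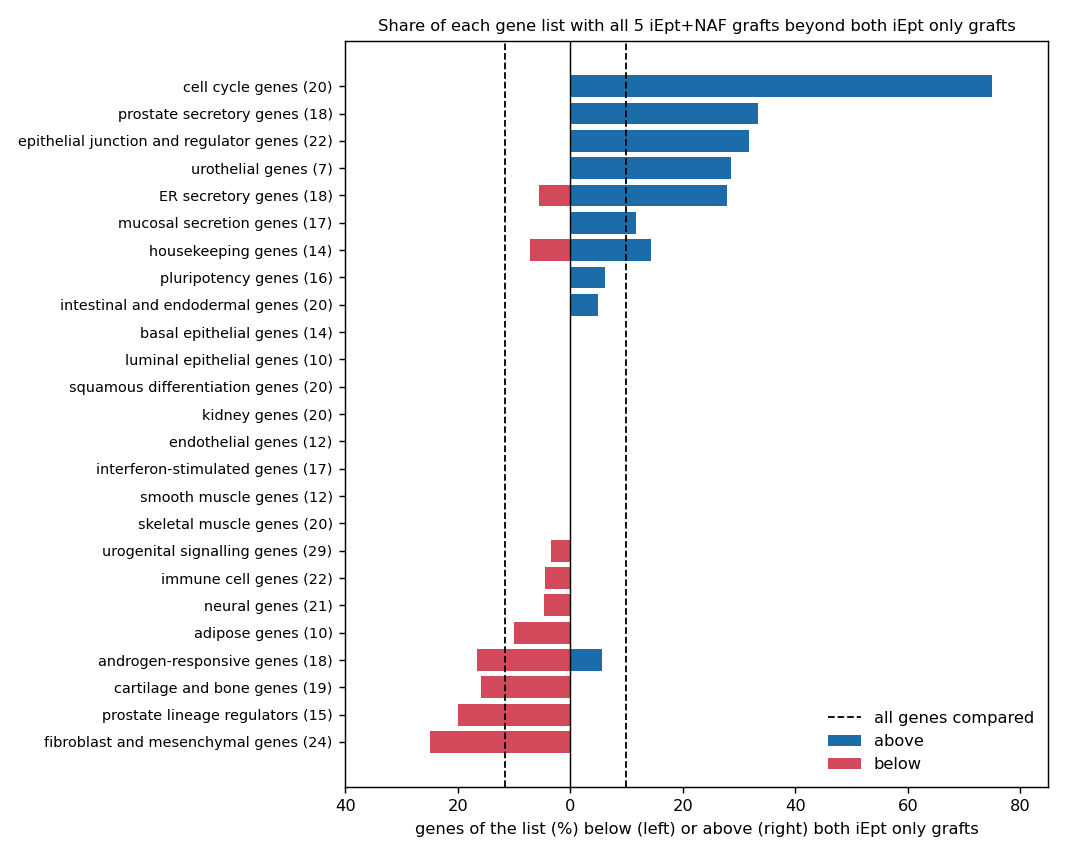
Bars give the percentage of each gene list (number of genes compared in parentheses) with all 5 iEpt+NAF grafts above (right, blue) or below (left, red) both iEpt only grafts, and dashed lines give 9.90% and 11.6% for all genes compared. Cell cycle genes reach 75% above, and fibroblast and mesenchymal genes reach 25% below.

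The 2 iEpt only grafts were unlike each other, which limits what can be read from any gene. They differed by at least 3 on the log2 scale in 1971 of 16886 genes, 495 higher in FS022 and 1476 higher in FS023. Among the 10 pairs of iEpt+NAF grafts this number was 265 to 2083, lowest for FS002 with FS005 and highest for FS003 with FS008. Spearman's rho over genes was 0.737 for FS022 with FS023 and 0.815 to 0.945 for the iEpt+NAF pairs, with genes as points that share each library's depth.

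FS022 was rich in smooth muscle and in seminal vesicle products. All 12 smooth muscle genes were higher in FS022 than in FS023 by at least 3, against 495 of all 16886 genes compared. Myh11, the smooth muscle myosin, had 17.15 against 6.91, with 10.58 to 11.87 in iEpt+NAF grafts. The seminal vesicle protein Svs4 had 12.13 against -0.17, and it ran from 1.48 in FS008 to 12.20 in FS005 with the regulators. FS023 was rich in neural and gastric products. Slc17a7, the vesicular glutamate transporter, had 12.55 in FS023, 2.03 in FS022 and at most 4.66 in iEpt+NAF grafts. The gastric product Gkn1 had 11.87 in FS023 against 0.55 in FS022, and 13.08 in FS003. Kidney genes also differed, with 16 of 20 higher in FS022 by at least 3, against the same 495 of 16886 genes. The kidney androgen-regulated gene Kap had 15.92, 9.86, 17.08, 12.33 and 16.64 in iEpt+NAF grafts against 14.54 and 11.30.

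The summed level of Hox genes was lower in FS023 than in every other graft, but single genes did not all follow. Hoxb2 had 2.77 in FS007 against 3.63 in FS023. Hoxc5 had 2.18 in FS007 and 2.64 in FS008 against 3.17 in FS023. The part of the mix of cells in these levels was not tested. Of 36 Hox genes compared, a list added after values were seen, 30 were higher in FS022 than in FS023 by at least 3. Over all 16886 genes compared this number was 495. None of the Hox genes was higher in FS023 by as much, against 1476 of all genes compared. Hoxd13, which marks the caudal end of the body, had 8.13, 8.82, 8.94, 8.47 and 4.19 in iEpt+NAF grafts, 10.09 in FS022 and 0.41 in FS023. Hoxa10 had 9.29, 8.93, 9.46, 10.34 and 8.10, then 11.24 and 4.07. The prostate factor Hoxb13 had 4.94, 7.07, 4.67, 4.60 and 1.8 against 8.90 in FS022 and 0.75 in FS023, where the prostate median was 12.87. The log2 of the summed normalized counts of the Hox genes was 10.90 to 12.70 in iEpt+NAF grafts, 13.78 in FS022 and 7.75 in FS023.

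**Figure D5:**
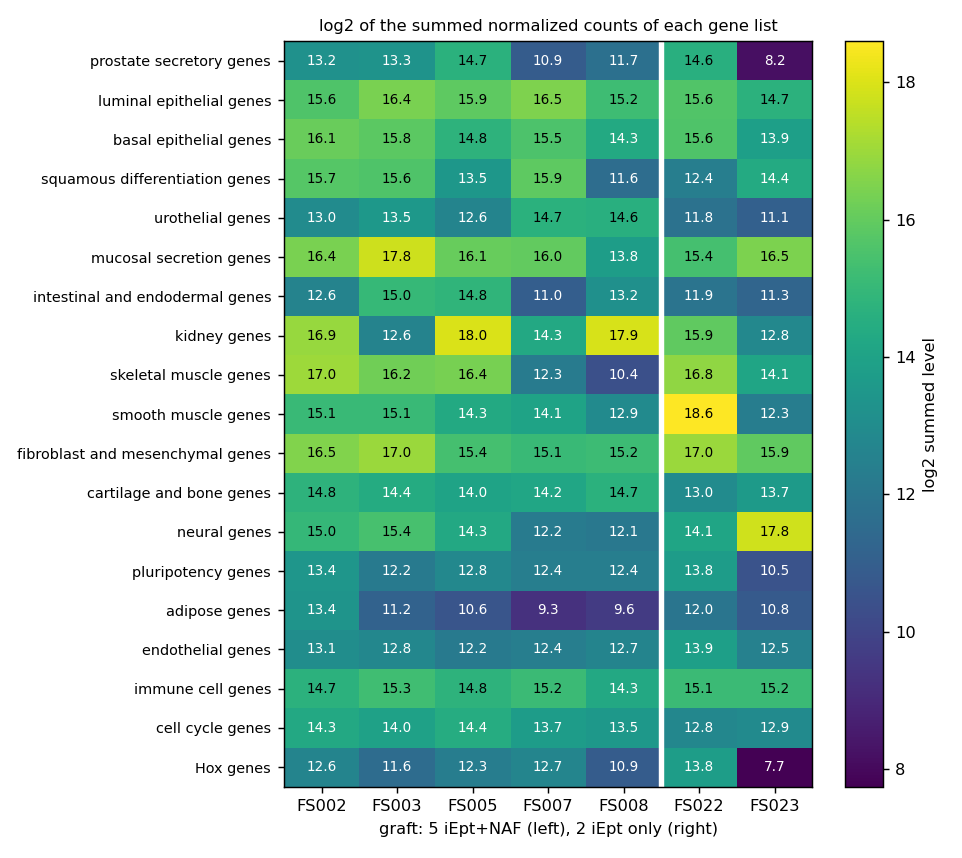
Each cell gives the log2 of the summed normalized counts of a gene list (rows) in a graft (columns, 5 iEpt+NAF on the left and 2 iEpt only on the right). FS022 has the highest smooth muscle level, 18.6, and FS023 the highest neural level, 17.8, and the lowest Hox level, 7.7.

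Within the iEpt+NAF grafts, FS002, FS003 and FS005 resembled each other and FS007 resembled FS008. The skeletal muscle creatine kinase Ckm had 13.33, 12.06 and 11.49 in the first 3 grafts but 4.84 and 2.99 in FS007 and FS008, with 11.27 and 9.92 in the iEpt only grafts. The pluripotency gene Lin28a had 9.83, 6.59 and 9.83, then 2.29 and -0.59, with 3.22 and 3.20 in the iEpt only grafts. The basal keratin Krt5 was low in FS008 alone, at 5.14 against 11.75 to 13.81 in the other iEpt+NAF grafts and 12.60 and 10.21 in the iEpt only grafts. Lists of other tissues each held few genes outside the overlap. Of 19 cartilage and bone genes, 3 were below (15.8%, against 11.6% of all genes compared), the osteoblast factor Sp7, Phex and Dmp1, with gaps of 0.14, 0.64 and 0.93. Sp7 was below only after FS022, at a measured 1.94, was raised to the value of 3 reads, and the iEpt+NAF grafts ran from -1.93 to 3.08. The hormone leptin, encoded by Lep, was below by 0.45 among 10 adipose genes, the macrophage receptor Emr1 by 0.30 among 22 immune cell genes, and the growth factor Tgfb2 by 0.72 among 29 urogenital signalling genes. On the side above were Muc4, a membrane mucin, by 0.13 among 17 mucosal genes that also include Scgb1a1, Hnf4a by 0.01 among 20 intestinal and endodermal genes, and Klf2 by 0.21 among 16 pluripotency genes. Of 14 housekeeping genes, Rplp0 and Gusb were above by 0.56 and 0.35 and Ywhaz was below by 0.16, and Hnf4a and Ywhaz overlapped under some scalings, Hnf4a also without the length and GC trends. No gene was outside the overlap in the skeletal muscle, smooth muscle, kidney, endothelial, squamous or interferon-stimulated lists, each with 12 to 20 genes compared, or among the 2 erythroid genes compared. In all, 28 lists held 442 compared genes, of which 42 were above (9.50%, against 9.90% of all genes compared) and 21 below (4.75%, against 11.6%).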

How the data were processed

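Per the labels and the study's methods, single-end reads were aligned to mm9 (TopHat and Cufflinks are named, with bcl2fastq 1.8.4), and gene counts normalized with DESeq were deposited by the authors as log2 values in 2 tables. From the spacing of values above 11.5, all of which were whole reads within 0.05, 1 read was worth 0.599 to 2.38 units. Lower values carry added scatter, so reads were not recovered and no count test was made. The tables were joined on 23259 gene names. Each sample was shifted by its median deviation from the gene mean over 10188 genes above 5 in all 19 samples. Genes with a mean of the 2 group means of at least 10 on the linear scale were compared. Named genes were the 12 largest gaps in each direction, the 8 in transcription factor families, the introduced factors, list members with the 2 largest gaps (or highest levels) and cell type markers, and others were named after their values were seen. Members and lists were chosen with earlier results of these data known. Results for some genes are not reported here. Scripts were tested on simulated data. Alternatives changed the scaling, filter, floor, pseudocount and minimum gap and left out each graft. Removal of length and GC trends was added after the data were seen. Nothing states whether grafts came from separate cultures.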

Additional observations from a re-analysis of the deposited data

Results flagged for a closer look

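In 127 named genes, 1 iEpt+NAF graft stood far from the other 4 in 8 cases (6.30%, where chance gives about 1 in 20), with a gap to the nearest graft above 0.71 of the range. FS008 was the lowest for Krt5, at 5.14, where the nearest graft had 11.75, and for Myc, at 6.69 beside 9.06, and the highest for Hes6, at 11.78 beside 10.25. FS007 was the lowest for Spink3, at 7.44 beside 10.67. FS005 was the highest for the cartilage genes Acan, at 7.94 beside 4.83, and Matn1, at 7.06, where the other 4 were below the value of 3 reads. FS003 was the highest for the osteocyte gene Dmp1, at 4.87 beside 2.74, and FS002 for the fat droplet protein Plin1, at 8.15 beside 3.66.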

How the results depend on the processing

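No value of a named gene outside the overlap changed sign under any alternative, and 57 of 66 such genes stayed outside it under every scaling, floor and pseudocount tried. The 9 others were Canx, Hnf4a, Steap4, Camkk2, Ywhaz, Pdgfra, Elf3, Hes6 and Rab25. Requiring a gap of at least 1 left 78 genes above and 194 below. Without a filter on low values 7188 genes were below, since a gene at the value of 3 reads in all grafts counts as below where that value is higher, as in the shallower iEpt only grafts. Leaving out 1 graft gave 1863 to 4028 genes above and 2073 to 5978 below, and 45 to 141 list members above and 22 to 103 below, the highest without FS022 or FS023, when 1 iEpt only graft is left. With the 75th percentile 12 list members were below in place of 21. The median difference over all genes was -0.09, and it moved between -0.12 and 0.06 with the scaling. The number of reads limits low genes most in FS022. No paired analysis was possible because the grafts carry no shared replicate numbers.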

Other observations

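Ribosomal protein genes, looked at after their values were seen, included some that stood apart in FS022. Rps16 had 12.58 in FS022 against 4.91 in FS023 and 7.45 to 8.73 in iEpt+NAF grafts, and Rpl5 had 12.72 against 5.18 and 6.77 to 7.5. Prostate and MEF medians were 7.35 and 7.68 for Rps16 and 7.45 and 6.72 for Rpl5. Both belong to families with many near-identical copies, and the part of reads split between copies was not tested. The neuropeptides Npy and Cartpt were below in all 5 iEpt+NAF grafts, with 2.09 to 6.21 against 8.86 and 10.02, and -1.36 to 6.75 against 9.10 and 9.78. Of genes above, 56.4% had a higher median in prostate than in MEFs, against 55.7% of all genes compared, and of genes below 47.8% did.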
